A study of Mus musculus with 7 samples.

Results

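The sarcomeric myosin heavy chain genes encode the motor proteins of the thick filament, and 8 of them were followed here: Myh1, Myh2, Myh3, Myh4, Myh6, Myh7, Myh7b and Myh8. They were chosen by gene symbol from the 29869 gene symbols of the deposited RNA sequencing table, and all 8 passed the filter on low counts with which 14033 genes were tested. The tissue was whole soleus, a hindlimb muscle rich in slow fibres, of mice 60 days old. There were 3 libraries labelled mdx/Runx1f/f (animals 359, 363 and 374, replicates 1 to 3) and 4 labelled mdx (animals 358, 361, 373 and 375, replicates 1 to 4), each from another animal by the titles. All 7 animals carry mdx, a loss of dystrophin used as a mouse model of Duchenne dystrophy, and no muscle with dystrophin is among them. Those labelled mdx/Runx1f/f also carry a floxed Runx1, an allele that Cre recombinase can cut, but the labels name no Cre driver, no cell type of deletion and no strain. Each library held between 16218306 and 20847902 counts, with a count for 17460 to 18281 genes.

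A muscle fibre is typed by the myosin heavy chain it makes. Type I slow fibres use Myh7, and fast fibres use Myh2 (type IIa), Myh1 (type IIx) or Myh4 (type IIb), in order of rising shortening speed. Myh3 and Myh8 are the embryonic and perinatal chains of developing fibres and return in regenerating fibres, which are frequent in mdx muscle. Myh6 is the alpha chain of the heart, and Myh7b is an ancient relative of Myh7 whose intron carries a microRNA. In bulk muscle a smaller number of fibres of a type and less RNA per fibre cannot be told apart.

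Runx1, which encodes a transcription factor, had more reads in the libraries whose label names its floxed allele. It stood at 919, 925 and 596 normalised read counts in mdx/Runx1f/f replicates 1 to 3, against 274, 273, 235 and 201 in mdx replicates 1 to 4 (813 ± 188 against 246 ± 34.5, SD). The groups did not overlap, with a log2 fold change of 1.74 ± 0.18 (SE, mdx/Runx1f/f over mdx, adjusted p = 0.00795 by edgeR's quasi-likelihood test) and an exact two-sided permutation p of 0.0286, the smallest that 3 against 4 libraries allow. A count over the whole gene also takes in exons outside a deleted stretch, so it does not show whether the floxed allele was cut. More reads, not fewer, is the direction opposite to a loss of Runx1 RNA, and its cause was not tested. The description field ties most animal numbers to other samples than the titles do, and the design text counts 3 mdx and 4 mdx/Runx1f/f muscles where the titles give 4 and 3. Groups are therefore called by the labels of the titles, and every direction given here is the direction between libraries so labelled. The counts of mdx/Runx1f/f replicate 1 differed from those of each other library by a chi-square of 114 to 163 per degree of freedom. All other pairs were at 16.2 to 127, so the ranges overlap at their ends.

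The family members are close copies, which bears on how far each count belongs to its own gene. Myh1, Myh2, Myh3, Myh4 and Myh8 lie on chromosome 11, Myh6 and Myh7 on chromosome 14, and Myh7b on chromosome 2. Between coding sequences, identity was highest for Myh6 and Myh7 at 91.7%, followed by Myh1 and Myh2 at 90.9% and Myh1 and Myh4 at 90.1%, and lowest for Myh1 and Myh7b at 68.8% (GENCODE, build GRCm38). Of all stretches of 50 bases in the Myh1 and Myh2 transcripts, 26.1% and 26.7% also occur in another member. That share was 22.6% in Myh6, 22.2% in Myh7, 19.9% in Myh8, 18.6% in Myh4 and 3.66% in Myh3, and no such stretch of Myh7b is shared. How the authors' counting treated reads that match more than 1 gene is not given in the sources used here, so a small count of one member beside a large count of its near copy is uncertain. The stretches below are 60 bases of coding sequence where Myh6 and Myh7 differ most, shown because a read from them belongs to 1 gene alone. Capitals mark the 27 positions at which the pair differs, bases 3226 to 3285 of the Myh6 and 3220 to 3279 of the Myh7 coding sequence.
Myh6: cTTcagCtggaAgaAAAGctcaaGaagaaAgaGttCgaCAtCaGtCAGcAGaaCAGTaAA
Myh7: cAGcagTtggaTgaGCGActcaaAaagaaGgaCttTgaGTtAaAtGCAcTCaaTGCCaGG

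The same view of the adult fast chains, bases 3851 to 3910 of Myh1 and Myh2 and 3842 to 3901 of Myh4, has 25 positions, in capitals, at which the 3 genes are not all alike.
Myh1: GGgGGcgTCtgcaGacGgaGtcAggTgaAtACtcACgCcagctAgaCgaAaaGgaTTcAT
Myh2: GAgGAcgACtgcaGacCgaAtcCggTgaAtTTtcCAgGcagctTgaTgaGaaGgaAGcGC
Myh4: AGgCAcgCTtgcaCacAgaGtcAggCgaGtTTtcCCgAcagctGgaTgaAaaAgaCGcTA

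Upstream of their starts, Myh2, Myh1, Myh4 and Myh8 share a longest common string of 14 letters, TTCTAATTATATCC. The windows below (RefSeq, build GRCm38.p6, plus strand) hold it in capitals with 23 bases on each side, at chr11:67170879-67170938 for Myh2, chr11:67199919-67199978 for Myh1, chr11:67237631-67237690 for Myh4 and chr11:67277047-67277106 for Myh8.
Myh2: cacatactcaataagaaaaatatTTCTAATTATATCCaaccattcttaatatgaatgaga
Myh1: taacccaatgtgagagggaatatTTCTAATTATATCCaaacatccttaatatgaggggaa
Myh4: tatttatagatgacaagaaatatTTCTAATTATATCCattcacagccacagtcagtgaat
Myh8: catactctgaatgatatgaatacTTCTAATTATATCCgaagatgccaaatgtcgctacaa

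Counted from the start, the string begins at base -125 in Myh2, -160 in Myh1, -158 in Myh4 and -54 in Myh8. On either strand it occurs in 4 of 32851 promoter windows of 300 bases (0.0122%), which are these 4, and it was found by comparing them. The letters TGTGGT, the core that Runx factors bind, occur on either strand in the window of 1 of the 8 members, Myh3, at base -94, while 16.8% of all windows hold them. The letters TATAAAA occur in 4 of 8 members (5.48% of windows) and CANNTG, the E-box of the MyoD family, in 6 of 8 (72.3% of windows).

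No member passed the test between the groups: 0 of 8 were called by edgeR at an adjusted p below 0.05, where 6.95% of the 14033 tested genes were called, 5.10% higher and 1.85% lower. At an unadjusted p below 0.05 there were 4 of 8 (Myh3, Myh4, Myh7 and Myh7b), against 29.5% of all tested genes. DESeq2 called 3 of 8 (Myh4, Myh7 and Myh7b), where it called 16.0% of 14808 genes, and limma-voom called 0 of 8, where it called 7.30%. With mdx/Runx1f/f replicate 1 left out, edgeR again called 0 of 8, and the log2 fold changes were -1.05 for Myh1, 0.088 for Myh2, 1.12 for Myh3, 2.86 for Myh4, 0.31 for Myh6, -0.78 for Myh7, -0.95 for Myh7b and -0.26 for Myh8. The groups did not overlap for 1 of 8 members, Myh7, against 27.3% of tested genes. Over the 8 members the median log2 fold change was -0.10, with 5 of 8 below 0, and over all tested genes it was -0.0016.

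The mix of isoforms differed from muscle to muscle. The 8 genes took 3.07%, 2.19% and 2.24% of all counts in mdx/Runx1f/f replicates 1 to 3, against 2.64%, 2.47%, 2.84% and 2.34% in mdx replicates 1 to 4. The leading isoform was Myh4, Myh7 and Myh2 in the 3 libraries labelled mdx/Runx1f/f, one in each, whereas Myh7 led in 3 of the 4 libraries labelled mdx and Myh2 led in replicate 4. Shares below are percentages of the summed raw counts of the 8 genes in a library, and their 95% Wilson intervals, which cover counting error only, reach at most 0.163 percentage points to either side. Coding lengths run only between 5808 and 5829 bases, so shares per length were nearly the same.

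**Figure D1:**
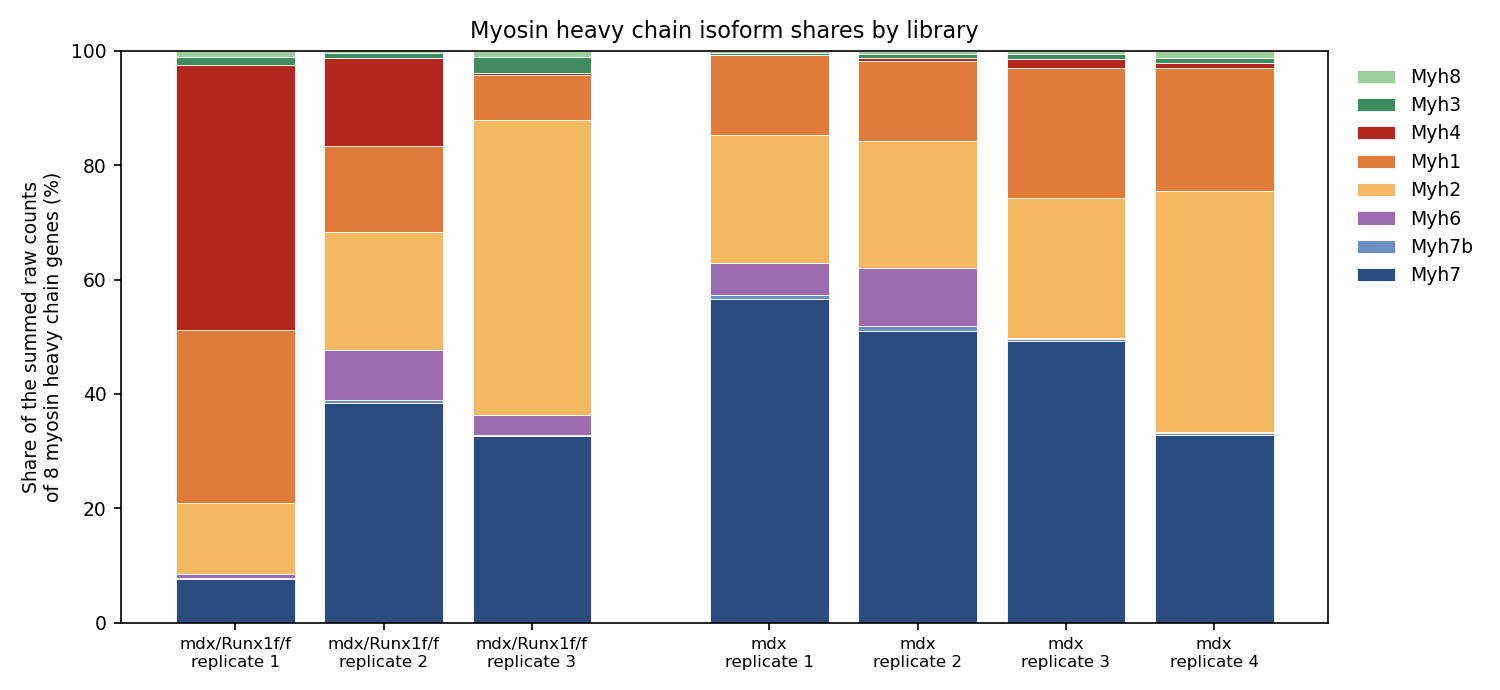
Stacked bars give each isoform's share (%, y axis) of the summed raw counts of the 8 myosin heavy chain genes in each library (x axis), with mdx/Runx1f/f on the left and mdx on the right. Myh4 takes 46.4% in mdx/Runx1f/f replicate 1 and 15.4% in replicate 2, against 0.329% in replicate 3 and at most 1.61% in the libraries labelled mdx.

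Myh7, the slow type I chain, was on average the most abundant isoform in the mdx libraries. It had 40503, 133265 and 128319 normalised counts in mdx/Runx1f/f replicates 1 to 3, against 261312, 221441, 275132 and 140992 in mdx replicates 1 to 4. Every library labelled mdx lay above every library labelled mdx/Runx1f/f, but the gap between mdx replicate 4 and the nearest of them was small. The means were 100696 ± 52187 and 224719 ± 60282 (SD), a log2 fold change of -1.15 ± 0.45 (SE) that did not pass the test (adjusted p = 0.139 by edgeR). With DESeq2 the fold change was -1.16 and the adjusted p 0.0289, and in the authors' deposited table the log2 fold change was -0.88 with an adjusted p of 0.0420. As a share of the family, Myh7 made up 7.64%, 38.5% and 32.6% in mdx/Runx1f/f replicates 1 to 3, against 56.7%, 51.0%, 49.3% and 32.9% in the mdx replicates. On that scale the groups overlapped, since mdx replicate 4 fell below mdx/Runx1f/f replicate 2.

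D830015G02Rik, the table's symbol for Mhrt, a long noncoding gene that overlaps Myh7 on the other strand, had 116, 378 and 300 normalised counts in mdx/Runx1f/f replicates 1 to 3, against 761, 632, 647 and 402 in mdx replicates 1 to 4. Its groups did not overlap either, by a narrow gap between mdx/Runx1f/f replicate 2 and mdx replicate 4. Since the strand setting is not stated, reads of Myh7 and of this gene cannot be told apart where they overlap.

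Myh7b, the slow tonic chain, was by its mean the least abundant member in both groups. It had 677, 1691 and 963 normalised counts in mdx/Runx1f/f replicates 1 to 3, against 2742, 3674, 2321 and 1508 in mdx replicates 1 to 4, and the groups overlapped only through mdx/Runx1f/f replicate 2 and mdx replicate 4. Its log2 fold change of -1.20 ± 0.37 (SE) had an adjusted p of 0.0818 by edgeR, 0.0693 by limma-voom and 0.0119 by DESeq2. With the animal-number run (described below) as a covariate in edgeR it was called, at -1.25 and an adjusted p of 0.0461. The authors' deposited table gives a log2 fold change of -0.95 and an adjusted p of 0.0182. No other member had so small a standard error, and no stretch of 50 bases of Myh7b occurs in another member. Leaving out 1 library at a time kept its log2 fold change between -1.63 and -0.95.

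The slow and cardiac members host microRNAs in their introns, shown here because the 3 share the start of their seed. The mature sequences (RefSeq, build GRCm38.p6) have the seed, bases 2 to 8, in capitals: miR-208a-3p and miR-208b-3p, hosted by Myh6 and Myh7, have the same seed, and miR-499-5p, hosted by Myh7b, differs from it at its last base.
miR-208a-3p: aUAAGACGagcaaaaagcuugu
miR-208b-3p: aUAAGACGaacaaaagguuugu
miR-499-5p: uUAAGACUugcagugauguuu

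The microRNA genes themselves had at most 1 count in any library of this table, so only the host transcripts were measured.

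Myh4, the chain of the fastest type IIb fibres, varied most. It had 246072, 53268 and 1293 normalised counts in mdx/Runx1f/f replicates 1 to 3, against 739, 2019, 8982 and 3277 in mdx replicates 1 to 4. Replicates 1 and 2 labelled mdx/Runx1f/f stood far above all other libraries, and replicate 3 lay below 3 of the 4 libraries labelled mdx. The group means of 100211 ± 128965 and 3754 ± 3636 (SD) differ 26.7-fold, but the SD of the first exceeds its mean. The log2 fold change of 4.76 ± 1.46 (SE) had an adjusted p of 0.0806 by edgeR, 0.215 by limma-voom and 0.0111 by DESeq2. DESeq2 as run here put it at 4.74 ± 1.43 (SE). The authors' deposited log2 fold change was smaller, at 0.83 ± 0.32 (SE) with an adjusted p of 0.0493, and its size is not compared here. Without mdx/Runx1f/f replicate 1 the edgeR log2 fold change was 2.86 with an adjusted p of 0.195. Without mdx/Runx1f/f replicate 3 edgeR called it, at 5.33 and an adjusted p of 0.0425. Without mdx/Runx1f/f replicates 1 and 2, a setting chosen after seeing the data, the log2 fold change was -1.53. Only 1 library labelled mdx/Runx1f/f then remains, so the spread comes from the mdx libraries alone and no p is given.

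Over all 7 libraries the SD of log2 CPM, which sets counts against the library's total scaled by its TMM factor, was 3.06 for Myh4. Only 1 of the 14033 tested genes had a larger one. For the median gene it was 0.27. Among the 3 libraries labelled mdx/Runx1f/f the SD of Myh4 was 3.90, and 0 tested genes had a larger one.

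Myh1 and Myh2, the type IIx and IIa chains, were abundant in every library. Myh1 had 160034, 52080 and 31480 normalised counts in mdx/Runx1f/f replicates 1 to 3, against 64478, 61021, 126653 and 92271 in mdx replicates 1 to 4. The mdx libraries lay within the range of the libraries labelled mdx/Runx1f/f, and edgeR gave a log2 fold change of -0.07 ± 0.55 (SE) with an adjusted p of 0.947. For Myh2 the values were 65540, 71406 and 202704 in mdx/Runx1f/f replicates 1 to 3 and 102598, 96267, 136663 and 180885 in mdx replicates 1 to 4. The highest Myh2 library was mdx/Runx1f/f replicate 3, where Myh2 made up 51.5% of the family, and edgeR gave a log2 fold change of -0.18 ± 0.45 (SE) with an adjusted p of 0.819. Leaving out 1 library at a time moved both fold changes across 0, between -1.05 and 0.31 for Myh1 and between -0.92 and 0.088 for Myh2. Together Myh1, Myh2 and Myh4 made up 89.0%, 51.0% and 59.9% of the family in mdx/Runx1f/f replicates 1 to 3, against 36.4%, 36.7%, 48.8% and 64.5% in mdx replicates 1 to 4. The fast sum was highest in mdx/Runx1f/f replicate 1, and mdx replicate 4 exceeded the other libraries labelled mdx/Runx1f/f.

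**Figure D2:**
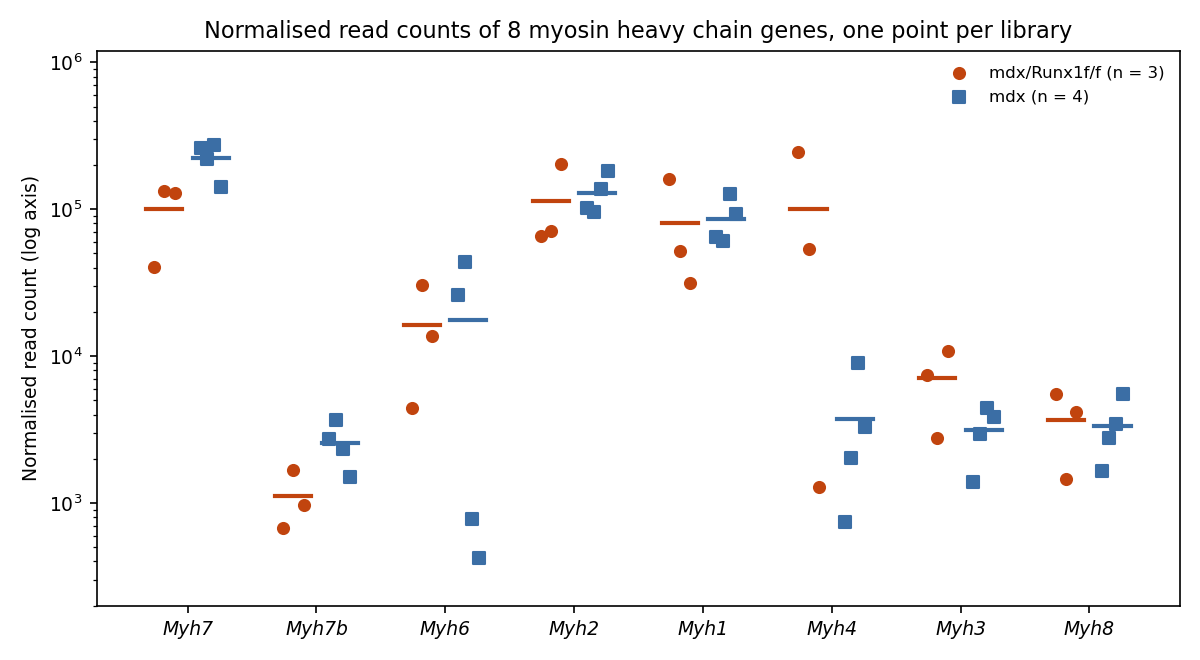
Each point is the normalised read count (log axis) of 1 gene in 1 library, with mdx/Runx1f/f as circles on the left and mdx as squares on the right of each gene, and horizontal lines at the group means. Myh7 is the only gene without overlap between groups, and Myh4 in mdx/Runx1f/f (1293 to 246072) and Myh6 in mdx (424 to 43692) span the widest ranges.

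The developmental chains were minor parts of the family. Myh3, the embryonic chain, had 7459, 2774 and 10910 normalised counts in mdx/Runx1f/f replicates 1 to 3, against 1400, 2967, 4404 and 3860 in mdx replicates 1 to 4. Replicates 1 and 3 labelled mdx/Runx1f/f lay above all libraries labelled mdx, and replicate 2 lay among them. The log2 fold change was 1.17 ± 0.49 (SE), with an adjusted p of 0.161 by edgeR and 0.0726 by DESeq2, and it stayed between 0.70 and 1.55 when 1 library was left out. Myh3 made up 1.41%, 0.801% and 2.77% of the family in mdx/Runx1f/f replicates 1 to 3, against 0.304%, 0.684%, 0.789% and 0.900% in the mdx replicates. Myh8, the perinatal chain, had 5482, 1464 and 4142 normalised counts in mdx/Runx1f/f replicates 1 to 3, against 1662, 2773, 3446 and 5509 in mdx replicates 1 to 4. Both groups covered nearly the same range, with a log2 fold change of 0.15 ± 0.50 (SE, adjusted p = 0.864 by edgeR).

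Myh6, the alpha chain of heart muscle, divided the libraries in a way that crossed the groups. It had 4407, 30500 and 13608 normalised counts in mdx/Runx1f/f replicates 1 to 3, against 26052, 43692, 783 and 424 in mdx replicates 1 to 4. Replicates 3 and 4 labelled mdx were low and the other 5 libraries high. The log2 fold change of -0.13 ± 1.40 (SE) had an adjusted p of 0.961 by edgeR, and limma-voom gave 1.44 with an adjusted p of 0.640, the other direction. Among the 4 libraries labelled mdx the SD of log2 CPM was 3.42, and 1 tested gene had a larger one. Myh6 counts were 10.9%, 22.9% and 10.6% of the Myh7 counts in mdx/Runx1f/f replicates 1 to 3, against 9.97%, 19.7%, 0.285% and 0.300% in mdx replicates 1 to 4. So in mdx replicates 3 and 4, where Myh7 was abundant, Myh6 held at most 0.300% of its near copy's count. Defining markers of heart muscle were near 0: Myl7, the atrial light chain, was at 0 in every library, Nppa and Mybpc3 reached at most 4.94 and 3.79 normalised counts, and Tnni3 averaged 16.1 in mdx/Runx1f/f and 19.9 in mdx. The listed 0 of Myl7 is not read here as absent expression. The 4 heart markers summed to 10.8 to 26.5 in mdx/Runx1f/f and at most 27.6 in mdx.

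Ordered by normalised count per kilobase of coding sequence, the means in mdx/Runx1f/f were 19423 ± 13305 for Myh2, 17337 ± 8985 for Myh7, 17218 ± 22159 for Myh4 and 13930 ± 11845 for Myh1 (SD, n = 3). These 4 did not separate, since each was above the next in 2 of 3 libraries. In the mdx libraries the means were 38691 ± 10379 for Myh7, 22148 ± 6659 for Myh2 and 14772 ± 5222 for Myh1 (SD, n = 4). Myh7 was above Myh2 in 3 of 4 of them, and Myh2 above Myh1 and Myh1 above Myh6 in 4 of 4. The lower end ran from Myh6 at 2780 ± 2275 through Myh3 at 1210 ± 701 and Myh8 at 636 ± 352 to Myh7b at 191 ± 89.7 in mdx/Runx1f/f. In mdx it ran from Myh6 at 3049 ± 3620 through Myh4 at 645 ± 625, Myh8 at 576 ± 278 and Myh3 at 542 ± 226 to Myh7b at 440 ± 155, and none of these neighbours was ordered alike in all 4 libraries.

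**Figure D3:**
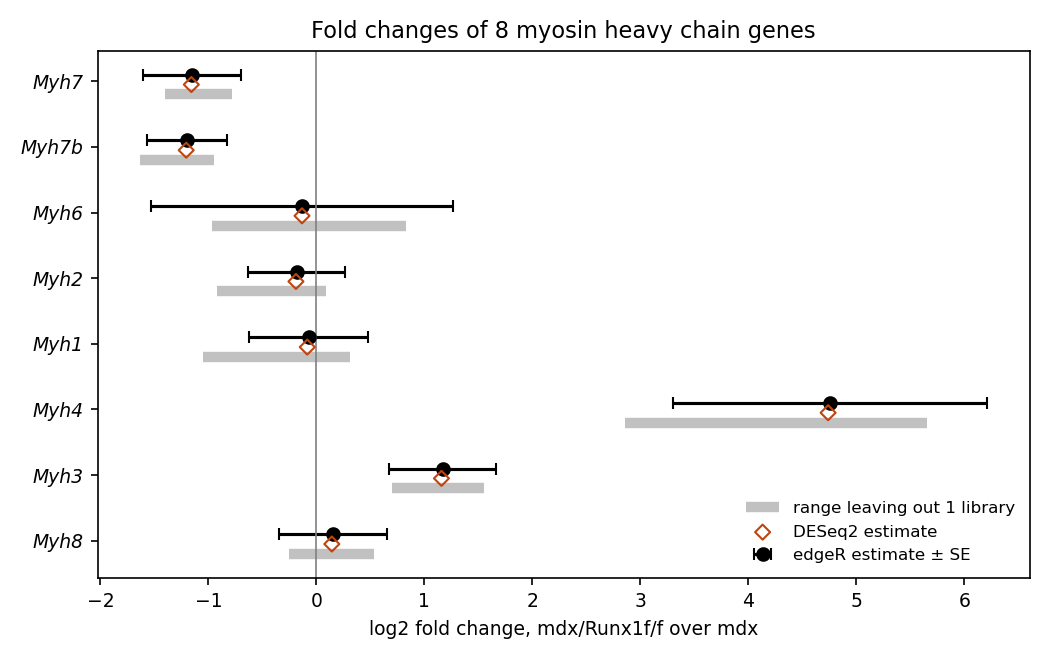
Black points give the edgeR log2 fold change of each gene (mdx/Runx1f/f over mdx, x axis) with its standard error, open diamonds the DESeq2 estimate, and grey bars the range of the edgeR estimate when 1 of the 7 libraries is left out. Myh7 and Myh7b stay below 0 and Myh3 and Myh4 above 0 throughout, while the bars of Myh1, Myh2, Myh6 and Myh8 cross 0.

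The animal numbers fall into 2 runs, 358 to 363 and 373 to 375, and the labels do not say what the runs stand for. Within 358 to 363 there are 2 libraries of each label, and within 373 to 375 there are 1 labelled mdx/Runx1f/f and 2 labelled mdx. The mean log2 difference of Myh4 (mdx/Runx1f/f minus mdx) was 6.56 in the first run and -2.06 in the second, and that of Myh6 was -1.53 and 4.56. Myh1 also changed sign between runs, at 0.55 and -1.77, as did Myh2 at -0.53 and 0.37 and Myh8 at 0.41 and -0.07. By contrast Myh7 was at -1.70 and -0.61, Myh7b at -1.56 and -0.95, Myh3 at 1.17 and 1.41, and Runx1 at 1.76 and 1.45, each with 1 sign in both runs. A single library stands for mdx/Runx1f/f in the second run, so a difference between runs and a difference between animals cannot be told apart. Among the mdx libraries the mean of Myh6 was 57.8-fold higher in animals 358 and 361 than in animals 373 and 375.

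The genes whose pattern over the 7 libraries was most like a member were looked up for the 2 members with an SD of log2 CPM of at least 1, Myh4 and Myh6, among 12136 genes. Likeness was the root mean square difference of log2 CPM after each gene's mean was taken off, which is a description. Genes picked this way follow the member over these same libraries by choice, so their group differences are no separate result. Nearest to Myh4 were Pvalb, the calcium buffer parvalbumin of fast fibres, at 1.03, Zmynd17 at 1.07 and Actn3, the Z-disc actinin of fast fibres, at 1.29. Pvalb had 72886, 22823 and 669 normalised counts in mdx/Runx1f/f replicates 1 to 3, against 2160, 2101, 9599 and 3934 in mdx replicates 1 to 4. Like Myh4 it was high in replicates 1 and 2 and low in replicate 3 of mdx/Runx1f/f, and its log2 fold change of 2.87 had an adjusted p of 0.151 by edgeR. Zmynd17 had 1931, 1200 and 46.6 normalised counts in mdx/Runx1f/f replicates 1 to 3, against 39.1, 53.3, 53.0 and 49.4 in mdx replicates 1 to 4, and here replicate 3 sat within the mdx range. Its log2 fold change of 4.45 passed the test (adjusted p = 0.0352 by edgeR), but it was called in only 1 of 7 fits that left out a library, the one without mdx/Runx1f/f replicate 3.

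Nearest to Myh6 were Rpl30, a protein of the large ribosomal subunit, at 0.928, Serpina3n, a serine protease inhibitor, at 1.15 and Mt2, a metallothionein, at 1.17. Rpl30 had 362, 791 and 339 normalised counts in mdx/Runx1f/f replicates 1 to 3, against 393, 677, 23.2 and 31.6 in mdx replicates 1 to 4. It was low in the same 2 libraries as Myh6. Genes of ribosomal proteins have many processed copies in the genome, so its count is uncertain where reads match several places.

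**Figure D4:**
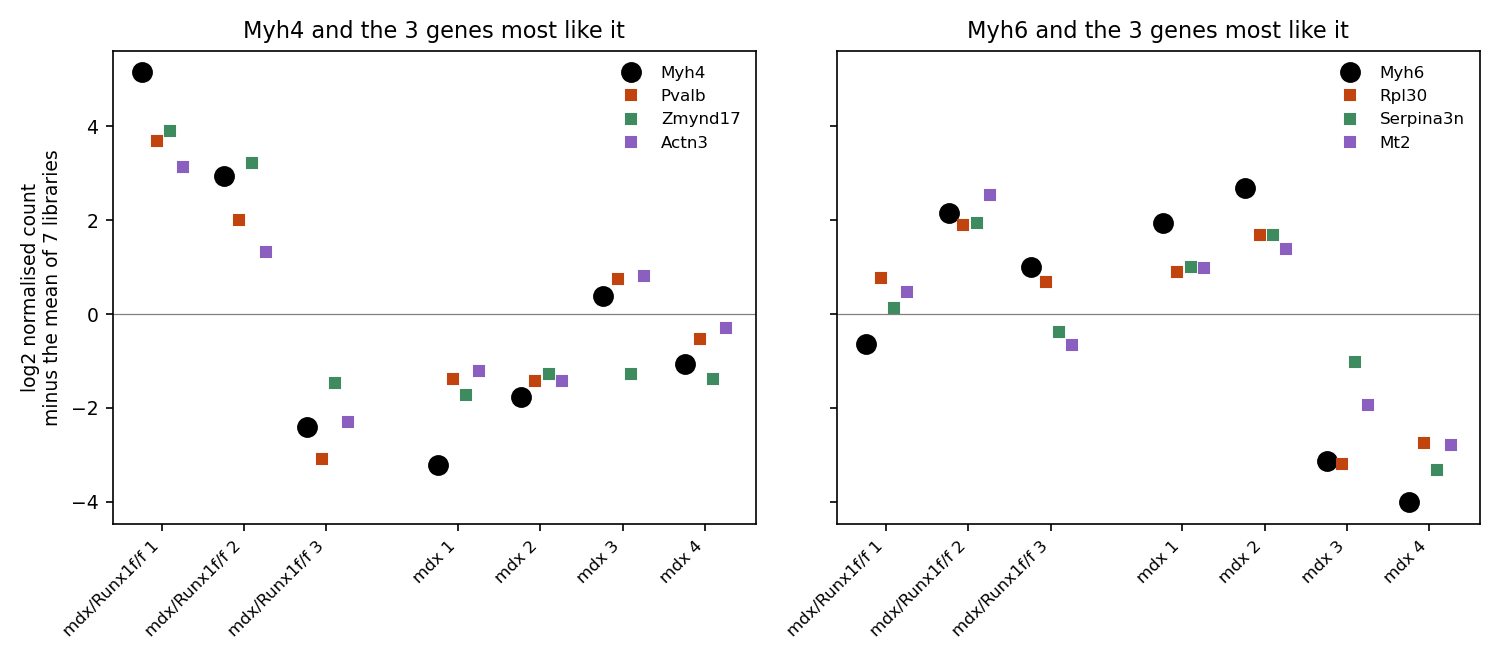
Points give the log2 normalised count minus the mean of the 7 libraries (y axis) in each library (x axis) for Myh4 (left panel) or Myh6 (right panel) in black and the 3 genes most like it in colour. Pvalb, Zmynd17 and Actn3 are high in mdx/Runx1f/f replicates 1 and 2 with Myh4, and Rpl30, Serpina3n and Mt2 are low in mdx replicates 3 and 4 with Myh6.

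Other genes of the slow fibre contractile apparatus did not pass the test. Of 12 such genes 0 were called by edgeR, 6 had an unadjusted p below 0.05 (29.5% of all tested genes had), and DESeq2 called 2, near its 16.0% over all genes. The median log2 fold change was -0.95, with 11 of 12 below 0, where the median of all tested genes was -0.0016. Myl3, the slow essential light chain, averaged 33737 ± 20156 normalised counts in mdx/Runx1f/f and 86559 ± 13967 in mdx (SD), a log2 fold change of -1.36 (adjusted p = 0.103 by edgeR). Atp2a2, the calcium pump of slow fibres, was at -1.03 (adjusted p = 0.152), Myoz2, a Z-disc protein, at -0.82 (adjusted p = 0.137) and Casq2, a calcium store protein, at -0.61 (adjusted p = 0.136). Without mdx/Runx1f/f replicate 1 the median was -0.56. The summed counts of the list were 202099 to 510521 in mdx/Runx1f/f and 555311 to 818048 in mdx, without overlap.

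Genes of the fast contractile apparatus had a median log2 fold change of 0.23, with 10 of 12 above 0 and 0 of 12 called by edgeR or DESeq2, while 1 of 12 had an unadjusted p below 0.05 (29.5% of all tested genes had). After Pvalb came Actn3 at 2.20 (adjusted p = 0.193), Mybpc2, the fast myosin binding protein, at 1.97 (adjusted p = 0.235) and Mylpf, the fast regulatory light chain, at 0.63 (adjusted p = 0.338). Without mdx/Runx1f/f replicate 1 the median was -0.25, and without replicates 1 and 2 it was -0.43, both in the other direction. Pvalb alone was called in 1 fit that left out a library, the one without mdx/Runx1f/f replicate 3.

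The embryonic and regenerating muscle list, to which Myh3 and Myh8 belong by role, had 0 of 15 genes called by edgeR, 5 with an unadjusted p below 0.05 (29.5% of all tested genes) and 3 called by DESeq2 (16.0% of its genes), shares near those over all genes. Its median log2 fold change was 0.59, with 12 of 15 above 0 and 3 below, the lowest at -0.38. Actc1, the cardiac actin that regenerating fibres also make, averaged 6828 ± 5556 normalised counts in mdx/Runx1f/f and 1603 ± 730 in mdx (SD), a log2 fold change of 2.10 (adjusted p = 0.0615 by edgeR). Myog, the myogenin gene of differentiating myoblasts, was at 1.17 (adjusted p = 0.0798), Tnnt2, a troponin of immature muscle, at 1.12 (adjusted p = 0.124) and Myod1, the myoblast determination factor, at 0.75 (adjusted p = 0.140). Without mdx/Runx1f/f replicate 1 the median was -0.12, the other direction.

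Among genes for the folding, anchoring and turnover of myosin, 1 of 13 was called higher and 0 lower by edgeR (5.10% and 1.85% of all tested genes were), with a median log2 fold change of -0.22. An unadjusted p below 0.05 was found for 5 of 13 (29.5% of all tested genes), and DESeq2 called 5 of 13 (16.0% of its genes), 4 of them with a negative fold change. The gene called was Mybph, which encodes a myosin binding protein of the thick filament. It had 2534, 463 and 1458 normalised counts in mdx/Runx1f/f replicates 1 to 3, against 360, 382, 306 and 151 in mdx replicates 1 to 4, without overlap, and its log2 fold change was 2.32 (adjusted p = 0.0432 by edgeR). The call held in 1 of 7 fits that left out a library, the one without mdx/Runx1f/f replicate 2. Myom1, an M-band protein that links thick filaments, was at -0.59 (adjusted p = 0.0743), and the ubiquitin ligases Trim63, which marks myosin heavy chain for breakdown, and Trim55 were at -0.69 and -0.38 (adjusted p = 0.0682 and 0.0839, edgeR).

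Of 17 tested regulators of myosin isoform genes, 1 was called lower and 0 higher by edgeR (1.85% and 5.10% of all tested genes were), with a median log2 fold change of -0.26. An unadjusted p below 0.05 was found for 5 of 17 (29.5% of all tested genes), and DESeq2 called 3 of 17 (16.0% of its genes), all with a negative fold change. That gene was Six4, a homeodomain factor of the fast fibre programme. It had 393, 369 and 527 normalised counts in mdx/Runx1f/f replicates 1 to 3, against 664, 707, 876 and 727 in mdx replicates 1 to 4, and all libraries labelled mdx were higher. Its log2 fold change of -0.78 (adjusted p = 0.0296 by edgeR) was called in 2 of 7 fits that left out a library, those without mdx replicate 1 or mdx/Runx1f/f replicate 3. Mef2d was at -0.32 (adjusted p = 0.0721) and Prox1, a factor of slow fibres, at -0.998 (adjusted p = 0.109). Ppargc1a, which encodes a coactivator of the slow oxidative programme, was listed at 0 in every library and was not tested, and the listed 0 is not read here as absent expression.

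**Figure D5:**
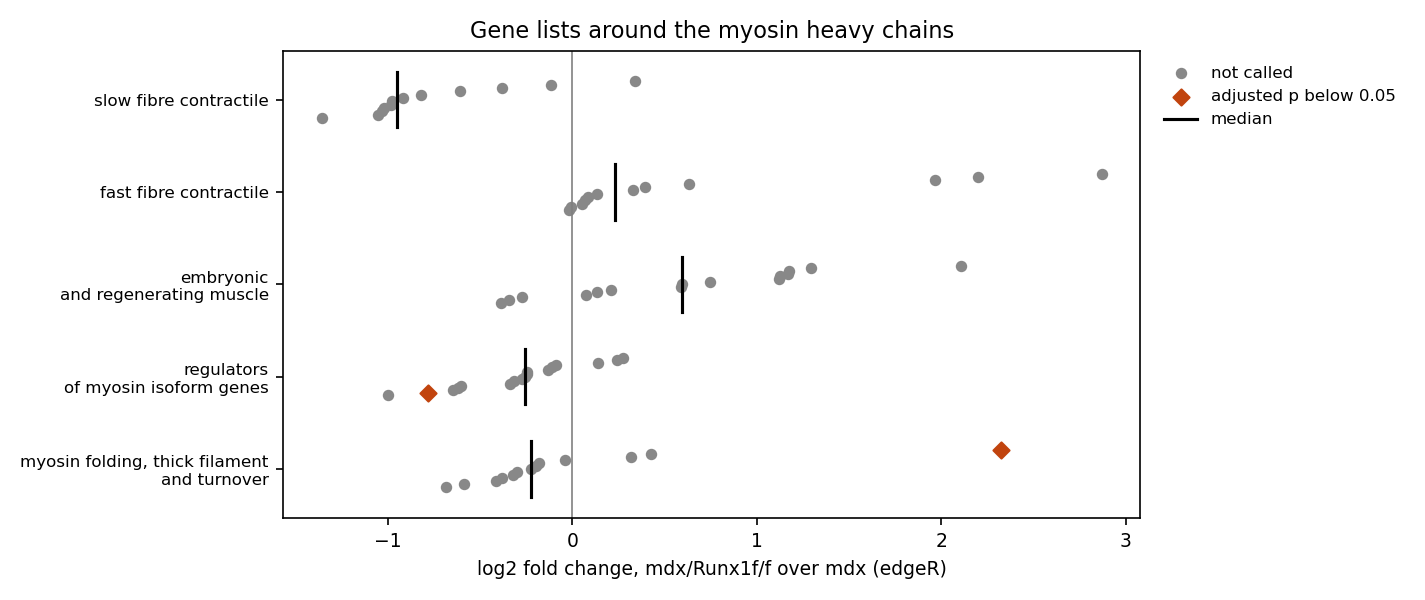
Each point is the edgeR log2 fold change (x axis, mdx/Runx1f/f over mdx) of 1 tested gene in 5 lists around the myosin heavy chains, with orange diamonds for genes at an adjusted p below 0.05 and a black line at each median. The slow list has a median of -0.95 and the fast list of 0.23, and the called genes are Mybph at 2.32 and Six4 at -0.78.

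Markers of other cell types also differed between the groups. All 7 fibroblast markers were above 0 with 6 called higher (5.10% of tested genes were), and their summed counts were 102244 to 123572 in mdx/Runx1f/f and 33054 to 51624 in mdx. Of 8 macrophage markers 1, C1qa, was called higher, with sums of 11185 to 31696 in mdx/Runx1f/f and 2727 to 11996 in mdx. Of 4 adipocyte markers 3 were called higher, with sums of 585 to 2207 in mdx/Runx1f/f and 181 to 460 in mdx, and of 4 Schwann cell markers 1, S100b, with sums of 1399 to 1500 in mdx/Runx1f/f and 724 to 1184 in mdx. With 1 library left out, 5 to 7 fibroblast, 0 to 4 macrophage and 0 to 4 adipocyte markers were called. None of 4 endothelial, 4 smooth muscle or 6 general skeletal fibre markers was called by edgeR (6.95% of all tested genes were). Of these 0, 3 and 0 had an unadjusted p below 0.05 by edgeR (29.5% of all tested genes had), and DESeq2 called 0, 1 and 0 (16.0% of its genes). DESeq2 called 7 of 7 fibroblast, 4 of 8 macrophage, 4 of 4 adipocyte and 3 of 4 Schwann cell markers, all higher. Endothelial sums overlapped, at 7838 to 11045 in mdx/Runx1f/f and 6803 to 14021 in mdx, and smooth muscle sums were 5261 to 8983 in mdx/Runx1f/f and 3464 to 5238 in mdx. General fibre markers summed to 993098 to 1180678 in mdx/Runx1f/f and 1204092 to 1511080 in mdx, without overlap. Acta1 made the largest part of these sums, averaging 524069 in mdx/Runx1f/f and 655174 in mdx (adjusted p = 0.521 by edgeR). The median log2 fold change of the 6 was -0.21, and they ran from -0.31 for Acta1 up to 0.0047, so the gap in the sum does not hold for each marker. The part of these cells in the myosin differences was not tested.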

How the data were processed

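RNA was taken from whole soleus and made into TruSeq libraries, per the labels' protocols. The authors deposited 1 table with raw read counts per gene symbol, made with TopHat2 2.0.10 and HTSeq on mm9, per the submitters' processing notes. For annotation, strand setting and multiply matching reads, the sources used here give nothing. The deposited normalised counts are a signal, the count divided by 1 factor per library, checked on the values. The deposited log2 fold changes, p-values and adjusted p-values carry DESeq2 column names per the file headers, and the notes name DESeq2 1.6.3. For every member the deposited log2 fold change was smaller in size than that of DESeq2 as run here, so their sizes are not compared. For all 975 genes called here, the authors' deposited sign matched mdx/Runx1f/f over mdx.

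Groups follow the sample titles. The test was edgeR's quasi-likelihood test (version 4.0.16, R 4.3.3, filterByExpr, TMM factors, Benjamini-Hochberg over 14033 genes holding 99.9% of counts, threshold 0.05). The SE is the log2 fold change over the root of its F statistic. DESeq2 1.42.0 and limma-voom (limma 3.58.1) were alternatives. Log2 CPM used a prior count of 2, and overlap of groups was judged on it. No library pair agreed within sampling noise (lowest chi-square per degree of freedom 16.24). The fitting step was tested on simulated data, where it recovered 52.5% of 2-fold and 90.7% of 4-fold changes, and 6.67% of its calls were false. The changed genes were drawn at random from the tested genes, and no run effect was simulated. Each member had a larger SD of log2 CPM than the median gene, so these rates need not hold for the members. P-values set the group difference against the spread between these animals, which the fits estimate partly across genes. Having 3 against 4 libraries limits how well that spread is known.

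The members and the gene lists were chosen with earlier results of these data known. Named genes are the 8 members, Runx1, from each list the 4 genes of smallest p, and for members with an SD of log2 CPM of at least 1 the 3 genes nearest in pattern that average 20 or more normalised counts. Symbols starting with Gm or holding Rik or LOC were left out there, and D830015G02Rik was named for its overlap with Myh7. Of 19 listed regulators 18 matched the table. 1 gene that this rule names is not reported here. Coding sequences and lengths are from GENCODE on GRCm38, and promoter windows around each start and microRNAs from RefSeq on GRCm38.p6, not the authors' build, so they gave sequence only.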

Additional observations from a re-analysis of the deposited data

Results flagged for a closer look

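Myh2 made up 42.2% of the family's counts in mdx replicate 4, against 22.3%, 22.2% and 24.5% in mdx replicates 1 to 3. Its gap to the next library, set against the range of the 4, exceeded Dixon's 95% critical value of 0.829. It was the only such case in 16 sets of 4 mdx values (counts and shares of 8 genes), and chance gives about 1 in 20. The normalised count of Myh2 in that library, 180885 against 96267 to 136663 in the other 3, was not singled out. In the same library Myh7 stood at 140992, its lowest value among the mdx libraries, and Myh7b at 1508, also its lowest.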

How the results depend on the processing

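Among all tested genes 715 were called higher and 260 lower by edgeR. Those counts were 1484 and 881 with DESeq2, 1246 and 582 with the animal-number run as a covariate, 0 and 0 in animals 358 to 363 alone, 1361 and 440 in animals 373 to 375 alone, 5 and 3 with groups by the description field, 96 and 2 without mdx/Runx1f/f replicates 1 and 2 (chosen after seeing the data), and 131 lower by library size alone. Leaving out 1 library gave 173 to 641 higher and 17 to 209 lower, fewest without mdx/Runx1f/f replicate 2. Of the members 0 were called in the edgeR test, 3 with DESeq2, 1 with the covariate (Myh7b, adjusted p = 0.0461), 5 in animals 373 to 375 alone, and 0 to 1 when a library was left out (Myh4 without mdx/Runx1f/f replicate 3).

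With the title's replicate number as a replicate block, 240 genes were called higher and 80 lower and 1 member, Myh7b (adjusted p = 0.0467), while Myh6 was at 0.0075. Deviations of libraries with the same number correlated at -0.007, 0.241 and 0.275, so the numbers were not taken as pairs.

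Log2 fold changes that turned direction were those of Myh1 by library size (0.037) and in animals 358 to 363 (0.77), and of Myh6 with limma-voom (1.44) and the covariate (1.48). In animals 373 to 375 alone, where 1 library stands for mdx/Runx1f/f and is assumed to vary like the others, they were 0.36 for Myh2, -2.24 for Myh4, 4.50 for Myh6 and -0.11 for Myh8. By the description field they were 1.05 for Myh2, -4.08 for Myh4, 0.15 for Myh7 and -0.80 for Runx1, and without mdx/Runx1f/f replicates 1 and 2 they were 0.65 for Myh2 and -1.53 for Myh4. Leaving out 1 library gave -1.05 to 0.31 for Myh1, -0.92 to 0.088 for Myh2, -0.97 to 0.83 for Myh6 and -0.26 to 0.53 for Myh8. The cause was not tested. Under the settings run other than the description field, Myh3, Myh7, Myh7b and Runx1 kept their direction, and Runx1 was not called in animals 358 to 363 (adjusted p = 0.131) or without mdx/Runx1f/f replicates 1 and 2, where 1 library so labelled remains. At these depths counting error is small, and the number of animals and the conflict between label fields limit what the comparisons show.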

Other observations

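Class II myosin heavy chain genes other than the followed members were also measured. Myh9, a nonmuscle chain found in most other cells of the muscle, had 4124, 5575 and 5420 normalised counts in mdx/Runx1f/f replicates 1 to 3, against 2641, 3165, 2331 and 3762 in mdx replicates 1 to 4. The groups did not overlap, as for 27.3% of tested genes, and its log2 fold change of 0.77 passed the test (adjusted p = 0.0480 by edgeR). The call held in only 2 of 7 fits that left out a library, those without mdx replicate 4 or mdx/Runx1f/f replicate 1. Myh9 was the only 1 of 6 such genes called by edgeR, where 5.10% of all tested genes were called higher and 1.85% lower. An unadjusted p below 0.05 was found for 3 of 6 by edgeR (29.5% of all tested genes). Myh11, the smooth muscle chain, was at 0.52 (adjusted p = 0.166), Myh13, the chain of extraocular muscle, at 0.60 (adjusted p = 0.363) and Myh15 at -1.55 (adjusted p = 0.117), with Myh15 at most at 22.7 normalised counts in any library. Myh13 was between 286 and 492 normalised counts in mdx/Runx1f/f and between 160 and 510 in mdx and thus had counts in every soleus. Its sequence was not compared with those of the followed members, so how far reads of other chains enter these small counts is uncertain.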
